A study of Mus musculus with 6 samples.

Results

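The guanylin axis and the ion transporters it acts on were followed through 8 genes, chosen by name, in a table of 23402 genes. They are the ligand genes Guca2a and Guca2b, the receptor gene Gucy2c, the apical anion channel gene Cftr, the apical exchanger genes Slc26a3, Slc26a6 and Slc9a3, and the basolateral cotransporter gene Slc12a2. RNA was sequenced from whole intestinal tissue, labelled as the last part of the small intestine, of 6 mice at 6 weeks of age, with 1 library per mouse. The mice had been drinking dextran sodium sulfate (DSS), and tissue was taken on day 6. DSS is a polysaccharide that injures the gut epithelium. The Cre-positive group (Il17rafl/fl;Atoh1-cre+, 3 mice, labelled KO) carried a Cre recombinase driven by Atoh1, a gene of the secretory epithelial lineage, together with floxed alleles of Il17ra, which encodes a receptor subunit for interleukin-17. The Cre-negative group (Il17rafl/fl;Atoh1-cre-, 3 littermates, labelled WT) carried the same floxed alleles without Cre, and both groups received DSS. The comparison asks what the loss of Il17ra in secretory cells does to transcripts of this tissue during DSS exposure. All animals had DSS, so its own effect could not be measured.

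Guanylin and uroguanylin are small peptides that intestinal epithelial cells release into the lumen. They bind guanylate cyclase C on the apical membrane of neighbouring cells, and the cyclic GMP made there drives chloride and bicarbonate out through the CFTR channel and slows sodium uptake by the exchanger NHE3. Chloride for secretion enters crypt cells across the basolateral membrane through the cotransporter NKCC1, while on the villus NHE3 works beside chloride-bicarbonate exchangers to take up salt. In mouse and rat, uroguanylin is known to be most abundant in the upper small intestine and guanylin in the lower bowel.

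No gene of the axis differed between the groups by more than the spread among mice. Of the 8 genes, 7 had values above 0, and each of the 7 had overlapping ranges in the 2 groups. Differences between mice crossed the genotypes. The ligand genes were highest in the libraries with the most villus enterocyte transcripts, one from each group, and Cftr and Slc12a2 were lowest there. Gucy2c was listed at 0 in every library.

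The libraries were checked against their labels with genes of each intestinal segment. Fabp6, the ileal bile acid binding protein gene, stood at 0.316, 1.02 and 2.41 FPKM (fragments per kilobase of transcript, scaled to depth) in Cre-positive libraries and at 1.22, 0.316 and 9.79 FPKM in Cre-negative libraries. Slc10a2, the ileal bile acid transporter gene, did not exceed 1.94 FPKM in any library. Gata4, a transcription factor gene of the upper small intestine that the mouse terminal ileum lacks, stood between 37.1 and 49.3 FPKM, and the lactase gene Lct between 188 and 419 FPKM. These 4 genes go against the labelled segment in all 6 libraries, so the tissue is called small intestine here. Cubn and Amn, the genes of the ileal cobalamin receptor, were present at 34.4 to 126 FPKM and 31.1 to 60.7 FPKM, and the duodenal iron reductase gene Cybrd1 did not exceed 2.31 FPKM. Of 6 colon genes, Hoxb13, Hoxd13 and Fxyd4 were listed at 0 in all 6 libraries, and no other exceeded 2.37 FPKM. Il17ra itself stood at 7.93, 8.36 and 6.07 FPKM in Cre-positive libraries and at 6.04, 5.91 and 6.53 FPKM in Cre-negative libraries, so it did not check the genotype labels, and directions are those of the libraries as labelled. Most cells of whole tissue lie outside the Atoh1 lineage, and the sources used here do not name the floxed exons. B cell markers (10 genes) summed to 78.9, 96.3 and 11.6 FPKM in Cre-positive libraries and to 16.5, 13.3 and 7.64 FPKM in Cre-negative libraries. Relative depth, read from steps in the low values and set to 1 in Cre-negative 1, was between 0.859 and 0.969 in Cre-positive libraries and between 0.930 and 1 in Cre-negative libraries.

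Guca2b, which encodes uroguanylin, was the most abundant gene of the axis and Guca2a, which encodes guanylin, came next. Guca2a lies on chromosome 4 from 119637704 to 119639471 on the plus strand of GRCm38 (GENCODE M21). Guca2b lies 17135 bases further on, from 119656607 to 119658954, on the minus strand, so that the 2 genes point towards each other. Their promoters are shown because the 2 neighbours had their highest and lowest levels in the same libraries. The promoter of Slc26a3, an exchanger gene highest in the library where both ligands were lowest, is set beside them. Each run is the 250 bases before the RefSeq start site (GRCm38.p6), read 5′ to 3′ on the gene's strand, at chr4:119637482-119637731 (plus) for Guca2a, chr4:119658946-119659195 (minus) for Guca2b and chr12:31437969-31438218 (plus) for Slc26a3. The Slc26a3 window lies wholly inside the span that GENCODE M21 gives that gene, 31390871 to 31473917, so the 2 sources place its start differently. Capitals mark every match to 3 short motifs, searched on both strands and chosen with the sequences in view.
Guca2a: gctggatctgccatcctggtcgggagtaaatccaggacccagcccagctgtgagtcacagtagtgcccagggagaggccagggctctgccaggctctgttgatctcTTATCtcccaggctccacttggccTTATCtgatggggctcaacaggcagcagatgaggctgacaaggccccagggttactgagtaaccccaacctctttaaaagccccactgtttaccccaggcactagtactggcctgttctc
Guca2b: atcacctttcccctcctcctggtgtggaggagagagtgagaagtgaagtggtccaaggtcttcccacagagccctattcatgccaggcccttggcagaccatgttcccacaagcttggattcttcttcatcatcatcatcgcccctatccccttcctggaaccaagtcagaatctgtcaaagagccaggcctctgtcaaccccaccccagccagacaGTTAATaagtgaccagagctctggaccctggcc
Slc26a3: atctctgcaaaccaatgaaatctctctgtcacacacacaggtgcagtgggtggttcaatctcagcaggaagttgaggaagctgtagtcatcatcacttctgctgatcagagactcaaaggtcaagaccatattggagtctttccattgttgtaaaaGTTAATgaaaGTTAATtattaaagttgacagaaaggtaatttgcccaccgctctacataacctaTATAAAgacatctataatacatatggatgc
Guca2a held 2 copies of the GATA motif GATAA on the minus strand, at bases -144 to -140 and -120 to -116 counted from the start site. Guca2b held 1 copy of the HNF1 half-site GTTAAT at -33 to -28. Slc26a3 held the HNF1 half-site at -94 to -89 and at -84 to -79, and the TATA box TATAAA at -30 to -25. No matches overlapped. Among 32851 RefSeq windows of this length, 22.6% held GATAA, 6.43% GTTAAT and 12.4% TATAAA. Of the 6 genes with a window in the RefSeq table, 1, 2 and 1 held these motifs. The genes with no window there were Gucy2c and Slc12a2. A match is a run of letters and not a site shown to be used.

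Guca2b stood at 882, 573 and 510 FPKM in Cre-positive libraries 1, 2 and 3, against 627, 674 and 989 FPKM in Cre-negative libraries 1, 2 and 3. Guca2a stood at 371, 211 and 183 FPKM in Cre-positive libraries and at 322, 232 and 461 FPKM in Cre-negative libraries. For both ligands the highest library was Cre-negative 3 and the lowest Cre-positive 3, and Cre-positive 1 lay within the range of the Cre-negative group, so the groups overlapped. Guca2b averaged 655 ± 199 FPKM in Cre-positive and 764 ± 197 FPKM in Cre-negative libraries (SD, n = 3 each), with a log2 fold change of -0.23 (SE 0.26). Guca2a averaged 255 ± 102 FPKM in Cre-positive and 338 ± 115 FPKM in Cre-negative libraries (SD, n = 3 each), with a log2 fold change of -0.42 (SE 0.32). Fold changes are on the log2(FPKM + 1) scale. Neither ligand passed limma's test adjusted over 12695 genes (adjusted p = 0.998 for both), and exact two-sided permutation tests gave p = 0.4 for Guca2a and p = 0.5 for Guca2b, where 0.1 is the smallest value 3 against 3 mice allow. The 95% interval of the Guca2a difference ran from -1.16 to 0.32 on the log2 scale, and that of Guca2b from -0.83 to 0.37. With the Cre-positive group reduced to library 3, which lacks the high B cell genes, the estimates were -0.83 for Guca2a and -0.55 for Guca2b. That library was the lowest for both ligands, so larger negative estimates followed from keeping it alone. This setting was added after the values were seen, and a part of B cell content was not tested.

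The balance of the ligands was in favour of uroguanylin in every mouse. The Guca2b to Guca2a ratio, per length, was 2.37, 2.71 and 2.79 in Cre-positive libraries and 1.95, 2.91 and 2.15 in Cre-negative libraries. The ratio averaged 2.62 ± 0.221 in Cre-positive and 2.34 ± 0.506 in Cre-negative libraries (SD, n = 3 each), and the Cre-positive values lay inside the Cre-negative range.

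Gucy2c, the receptor gene on chromosome 6 from 136697284 to 136781765, was listed at 0 in all 6 libraries, as were 5640 genes of the table. The gene is known to be expressed by intestinal epithelium, and 10 epithelial markers together summed to 4583, 3871 and 4296 FPKM in Cre-positive libraries and to 4207, 4320 and 4216 FPKM in Cre-negative libraries. Of 101 rows for ribosomal protein genes, 1 was listed at 0 throughout. Whether the value for Gucy2c reflects missing transcripts or a failed estimate was not tested, and the receptor entered no comparison.

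**Figure D1:**
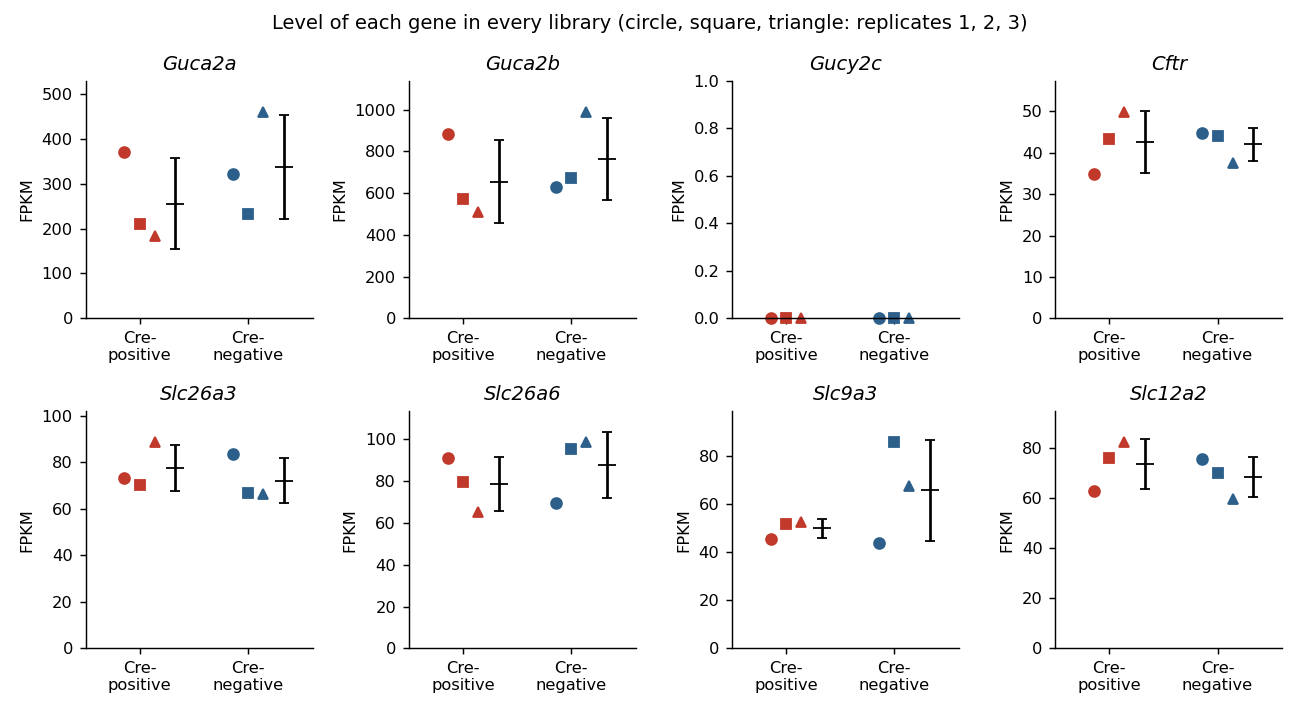
FPKM (vertical axes, each from 0) of the 8 genes in every library, with Cre-positive mice in red and Cre-negative mice in blue; black bars give the mean and SD of 3 mice. The 2 groups overlap for each gene with values above 0, and Gucy2c is listed at 0 in all 6 libraries.

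The secretory transporters were nearly level between the groups. Cftr, the apical chloride and bicarbonate channel gene (chromosome 6, 18170687 to 18322768), stood at 34.9, 43.3 and 49.9 FPKM in Cre-positive libraries and at 44.8, 44.0 and 37.4 FPKM in Cre-negative libraries. Its lowest and highest libraries were both Cre-positive. Cftr averaged 42.7 ± 7.52 FPKM in Cre-positive and 42.1 ± 4.04 FPKM in Cre-negative libraries (SD, n = 3 each; log2 fold change 0.01, 95% interval -0.32 to 0.34, limma adjusted p = 0.998). This estimate was so close to 0 that its sign turned under median-of-ratios scaling (-0.029), and it was 0.24 with the Cre-positive group reduced to library 3. GENCODE places an antisense gene inside the Cftr span, and the sources used here do not say whether strand was used in counting. A processed pseudogene on the same strand overlaps Cftr and another overlaps Slc26a3, and their part in the values was not tested. Slc12a2, which encodes the basolateral sodium-potassium-chloride cotransporter NKCC1 (chromosome 18, 57878678 to 57946821), stood at 62.8, 76.1 and 82.5 FPKM in Cre-positive libraries and at 75.8, 70.1 and 59.9 FPKM in Cre-negative libraries. Its extremes lay one in each group, with Cre-positive 3 highest and Cre-negative 3 lowest. Slc12a2 averaged 73.8 ± 10.04 FPKM in Cre-positive and 68.6 ± 8.03 FPKM in Cre-negative libraries (SD, n = 3 each; log2 fold change 0.10, 95% interval -0.21 to 0.42, limma adjusted p = 0.998).

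Of the absorptive exchangers, Slc9a3 had the largest estimated difference, and its groups overlapped through 1 Cre-negative mouse. Slc9a3, which encodes the sodium-proton exchanger NHE3 (chromosome 13, 74121457 to 74169442), stood at 45.5, 52.0 and 52.5 FPKM in Cre-positive libraries and at 44.0, 85.9 and 67.8 FPKM in Cre-negative libraries. Cre-negative 2 and 3 were above all Cre-positive libraries, and Cre-negative 1 was below them. Slc9a3 averaged 49.98 ± 3.92 FPKM in Cre-positive and 65.9 ± 21.0 FPKM in Cre-negative libraries (SD, n = 3 each), with a log2 fold change of -0.34 (SE 0.22, 95% interval -0.85 to 0.17, limma adjusted p = 0.998). Without Cre-negative 1 the estimate was -0.60 (limma adjusted p = 0.850), and without Cre-negative 2 it was -0.13. Adjusted p over all settings for this gene was never below 0.102, the value with array weights, which give each library its own weight.

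The 2 chloride-bicarbonate exchangers had estimates of opposite sign. Slc26a6, which encodes the exchanger PAT1 (chromosome 9, 108853283 to 108913049), stood at 91.1, 79.6 and 65.1 FPKM in Cre-positive libraries and at 69.8, 95.3 and 98.7 FPKM in Cre-negative libraries. Slc26a3, which encodes the exchanger DRA (chromosome 12, 31390871 to 31473917), stood at 73.5, 70.3 and 88.7 FPKM in Cre-positive libraries and at 83.5, 66.7 and 66.3 FPKM in Cre-negative libraries. Cre-positive 3 and Cre-negative 1, which had the least Slc26a6, had the most Slc26a3. Slc26a6 averaged 78.6 ± 13.0 FPKM in Cre-positive and 87.9 ± 15.8 FPKM in Cre-negative libraries (SD, n = 3 each; log2 fold change -0.16, 95% interval -0.55 to 0.24, limma adjusted p = 0.998). Slc26a3 averaged 77.5 ± 9.84 FPKM in Cre-positive and 72.2 ± 9.81 FPKM in Cre-negative libraries (SD, n = 3 each; log2 fold change 0.10, 95% interval -0.21 to 0.41, limma adjusted p = 0.998). The ratio of Slc26a3 to Slc26a6 was 0.807, 0.884 and 1.36 in Cre-positive libraries and 1.20, 0.701 and 0.672 in Cre-negative libraries, so that DRA transcripts outnumbered PAT1 transcripts per length in 1 mouse of each group.

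Ratios of secretory to absorptive transporters did not separate the groups either. Slc12a2 over Slc9a3 was 1.38, 1.46 and 1.57 in Cre-positive libraries and 1.72, 0.816 and 0.884 in Cre-negative libraries. Every Cre-positive mouse had more cotransporter than NHE3 transcripts per length, and 1 of the Cre-negative mice did. Cftr over Slc26a3 was 0.475, 0.617 and 0.562 in Cre-positive libraries and 0.536, 0.660 and 0.565 in Cre-negative libraries. These ratios were given no test.

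**Figure D2:**
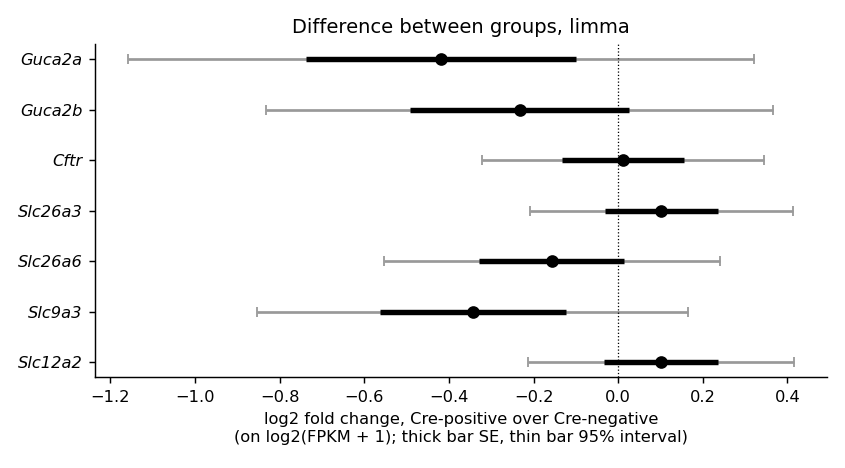
Log2 fold changes (horizontal axis, Cre-positive over Cre-negative, log2(FPKM + 1) scale) of the 7 tested genes, with thick bars for the standard error and thin bars for the 95% interval. All 7 intervals include 0, and the widest belongs to Guca2a, from -1.16 to 0.32.

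Set against the whole table, 0 of the 7 tested genes passed limma's adjusted threshold of 0.05, where the share of all 12695 genes was 0%. At an unadjusted p under 0.05, 0 of 7 were higher and 0 of 7 lower in Cre-positive libraries, where 2.54% of all genes were higher and 1.07% lower. None of the 7 had groups apart, against 5.77% of all genes higher and 2.6% lower. Estimates were above 0 for 3 genes and below 0 for 4, with a median log2 fold change of -0.16, and the median of all tested genes was 0.03. After rescaling to an equal sum the median of all genes was 0.13, and that of the 7 genes -0.04.

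Ordered by mean level over the 6 libraries, Guca2b (709 FPKM) and Guca2a (297 FPKM) stood clear of the transporters, with no overlap of their ranges with each other or with the next gene. Slc26a6 (83.2 FPKM), Slc26a3 (74.8 FPKM), Slc12a2 (71.2 FPKM), Slc9a3 (57.9 FPKM) and Cftr (42.4 FPKM) followed. Each neighbouring pair among these 5 overlapped in range. Slc26a6 exceeded Slc26a3 in 4 of 6 libraries, Slc26a3 exceeded Slc12a2 in 4, Slc12a2 exceeded Slc9a3 in 4 and Slc9a3 exceeded Cftr in 5. The spread over mice was widest for Guca2a, whose highest library was 2.52 times its lowest, then for Slc9a3 (1.95 times) and Guca2b (1.94 times), and narrowest for Slc26a3 (1.34 times).

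For 4 of the 7 genes, levels followed the summed villus markers within each genotype, in the same or the inverse order. Each order rests on 3 libraries, and the share of all tested genes that do the same was not computed. The 12 villus enterocyte markers, among them the apolipoprotein genes Apoa1 and Apoa4 and the brush border enzyme gene Alpi, summed to 15493, 8988 and 7242 FPKM in Cre-positive libraries and to 8861, 12452 and 15656 FPKM in Cre-negative libraries. The 8 crypt and progenitor markers, led by Olfm4, summed to 370, 641 and 691 FPKM in Cre-positive libraries and to 754, 618 and 438 FPKM in Cre-negative libraries. The villus sum was thus highest and the crypt sum lowest in Cre-positive 1 and Cre-negative 3, and neither sum separated the groups. Apoa1 and Olfm4 carry much of these sums, and single markers went against them. Fabp1, a fatty acid binding protein gene of the villus, was lowest in Cre-positive 1 at 718 FPKM. Of the 8 crypt markers, the stem cell genes Lgr5 and Ascl2 had groups apart, both higher in Cre-positive libraries. Of all tested genes, 5.77% were apart in that direction, and none passed limma's adjusted threshold. Lgr5 stood at 3.40, 3.11 and 3.35 FPKM in Cre-positive libraries and at 2.87, 2.96 and 3.02 FPKM in Cre-negative libraries. Ascl2 stood at 4.15, 4.58 and 4.83 FPKM in Cre-positive libraries and at 2.84, 3.61 and 2.55 FPKM in Cre-negative libraries. Guca2b and Slc26a6 ranked with the villus sum inside both groups, and Cftr and Slc12a2 ranked against it inside both. Guca2a ranked with it, and Slc9a3 against it, inside the Cre-positive group, and Slc26a3 ranked against it inside the Cre-negative group, while in the remaining group each of these 3 genes followed neither order. In bulk tissue, fewer cells of a type and less RNA per cell cannot be told apart.

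Correlations over the 6 libraries were computed for 7 genes with each marker sum, 14 relations in all, chosen after the values were seen. Slc12a2 had Pearson's r = -0.981 with the villus sum (exact permutation p = 0.00278, adjusted 0.0292) and Spearman's rho = -0.943 (exact permutation p = 0.0167, adjusted 0.0778), with r = -0.983 without the 2 libraries farthest from the median. Guca2b had r = 0.955 (exact permutation p = 0.00417, adjusted 0.0292) and rho = 0.943 (exact permutation p = 0.0167, adjusted 0.0778), with r = 0.908 without those 2. Both r values thus stayed large in the 4 libraries kept, among them Cre-positive 3, which had the lowest villus sum. They were given no test there, and 4 libraries are too few to show that a relation holds. Left out were Cre-positive 1 and Cre-negative 3, which had the highest villus sums. Cftr had r = -0.909 (exact permutation p = 0.00972, adjusted 0.0389) and rho = -0.886 (exact permutation p = 0.0333, adjusted 0.0933), with r = -0.707 without them. Slc26a6 had r = 0.928 (exact permutation p = 0.0181, adjusted 0.0506) and rho = 0.943 (exact permutation p = 0.0167, adjusted 0.0778), with r = 0.955 without them. After adjustment, 3 of the villus relations passed 0.05 by Pearson's r and none by Spearman's rho. The adjustment covers these 14 relations only. The share of all tested genes related as closely to the villus sum was not computed, so the relations are not shown to be particular to the axis. For Guca2a, r was 0.786 (exact permutation p = 0.0931, adjusted 0.158) and rho 0.829 (exact permutation p = 0.0583, adjusted 0.117), and r of 0.290 without the 2 farthest libraries shows that the relation rests on them. Slc26a3 gave r = -0.748 (exact permutation p = 0.101, adjusted 0.158) and rho = -0.829 (exact permutation p = 0.0583, adjusted 0.117), with r = -0.854 without them. Slc9a3 gave r = 0.346 (exact permutation p = 0.474, adjusted 0.510) and rho = 0.314 (exact permutation p = 0.564, adjusted 0.564), with r = 0.803 without them. With the crypt sum, Cftr had r = 0.929 (exact permutation p = 0.0111, adjusted 0.0389) and rho = 0.886 (exact permutation p = 0.0333, adjusted 0.0933). Without the 2 farthest libraries this r was 0.345, so it rests on them. No other crypt relation passed after adjustment (Pearson's r from -0.867 to 0.883, adjusted exact permutation p from 0.0583 to 0.943). The villus markers made up 1.46% to 2.95% of all FPKM in a library.

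**Figure D3:**
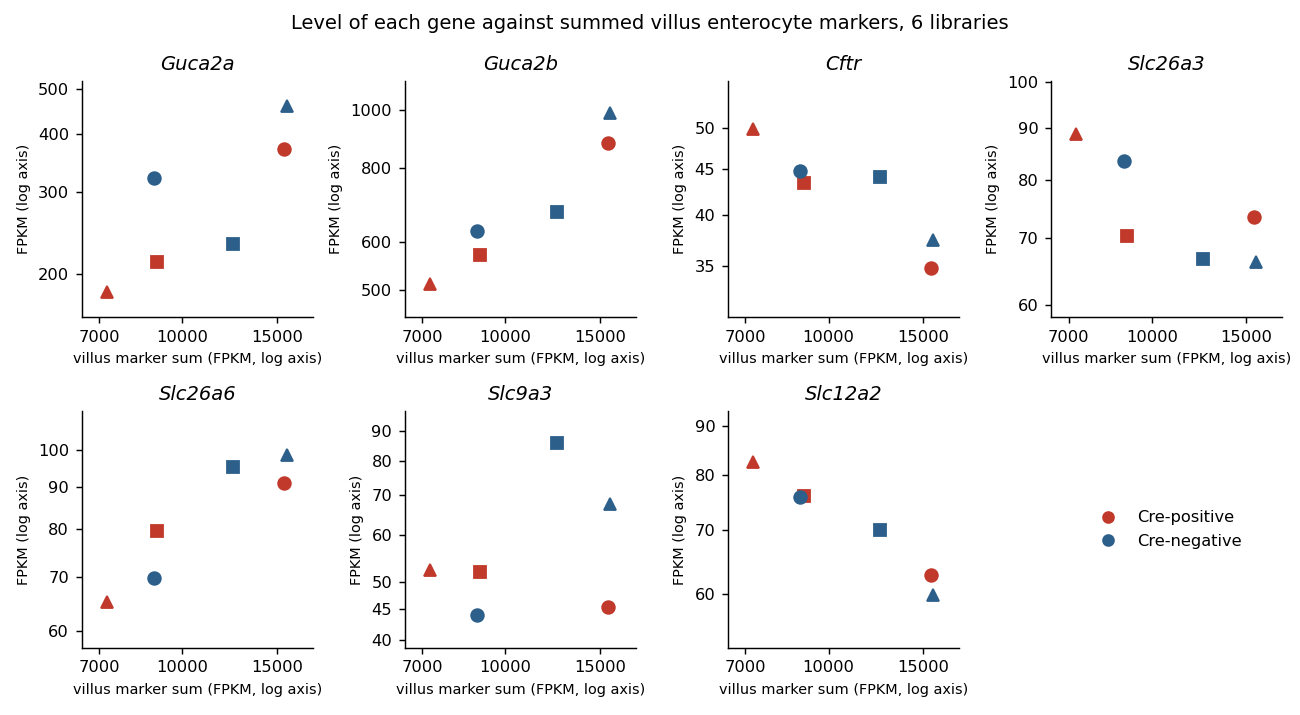
Level of each gene (vertical axes, FPKM, log scale) against the summed FPKM of 12 villus enterocyte markers (horizontal axes, log scale) in 6 libraries, with Cre-positive in red, Cre-negative in blue and circles, squares and triangles for replicates 1, 2 and 3. Guca2b and Slc26a6 climb with the villus sum and Slc12a2 and Cftr descend, with libraries of both colours along each line of points.

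Among the 7 genes, the closest patterns belonged to Cftr and Slc12a2, whose log2 values, centred on each gene's mean, differed by a root mean square of 0.06 over the 6 libraries. Slc26a3 and Slc12a2 (0.12) and Cftr and Slc26a3 (0.15) came next. Guca2b was nearest to Slc26a6 (0.20) and to Guca2a (0.21), and the most unlike pair was Guca2a and Cftr (0.62). Over 8851 other genes averaging 5 FPKM or more, by the same measure and over the same 6 libraries, those most like Guca2a were Dfna5 (0.09), Clec2h (0.14) and the enterocyte fatty acid binding protein gene Fabp2 (0.16). Those most like Guca2b were Garem (0.05), Amn (0.05), which encodes a partner of cubilin in cobalamin uptake, and the ceramidase gene Asah2 (0.06). For Slc26a6 they were the prostaglandin receptor gene Ptger4 (0.05), Zfand2a (0.06) and Rab31 (0.06). For Slc9a3 they were B3gnt7 (0.12), Slc51b (0.13), which encodes a subunit of the basolateral bile acid exporter, and Fam3b (0.15). The nearest to Cftr were Lrrc14 (0.03), Ndufa5 (0.03) and Ncbp1 (0.03), to Slc12a2 Srsf1 (0.02), Mlec (0.02) and Parva (0.02), and to Slc26a3 Trmt2b (0.03), Snapc3 (0.04) and Pus10 (0.04). Genes that vary little lie close to many others by this measure.

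No gene of the surrounding pathway passed the test. In 8 lists of genes for cyclic GMP signalling, transport and its control, 89 genes were tested, 0 passed limma's adjusted threshold (smallest adjusted p = 0.998), and 2 were higher and 0 lower at an unadjusted p under 0.05, where the table held 2.54% higher and 1.07% lower. Their median log2 fold change was 0.02, and that of all tested genes was 0.03. Car12, a membrane carbonic anhydrase gene, was the 1 gene of 89 whose groups did not overlap. It stood at 5.31, 5.403 and 5.705 FPKM in Cre-positive libraries and at 4.03, 3.97 and 3.22 FPKM in Cre-negative libraries, with a log2 fold change of 0.45 (SE 0.12, limma unadjusted p = 0.00456, adjusted p = 0.998). Kcnk5, a basolateral potassium channel gene, stood at 28.2, 33.8 and 26.4 FPKM in Cre-positive libraries and at 17.5, 21.4 and 27.7 FPKM in Cre-negative libraries (log2 fold change 0.41, limma unadjusted p = 0.0444, adjusted p = 0.998). Both were higher by estimate and neither passed over all genes.

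Of 18 genes for cyclic GMP signalling, 12 were tested, and their estimates lay between -0.10 and 0.12 (median 0.01). The list also holds natriuretic peptide receptor genes and genes of other guanylate cyclases, so it is not particular to guanylate cyclase C. The lowest p values belonged to the cyclic GMP-dependent kinase gene Prkg1 (log2 fold change 0.12) and to Irag1 (0.08), a substrate of that kinase in smooth muscle. Of 15 tested genes for the scaffolding, traffic and control of NHE3 and CFTR, 6 had estimates above 0 and 9 below (median -0.01). Pdzk1, a scaffold of the brush border, averaged 64.1 ± 25.8 FPKM in Cre-positive and 84.0 ± 26.8 FPKM in Cre-negative libraries (SD, n = 3 each; log2 fold change -0.41), and Shank2 had a log2 fold change of 0.24. Of 13 other sodium uptake genes, 8 had estimates above 0 (median 0.07), with the sodium-proton exchanger gene Slc9a8 (0.26) at the lowest p value. Of 12 other anion channel and exchanger genes, 5 had estimates above 0 (median -0.01), and here the lowest p values were those of Lrrc8a (0.17), a subunit of the volume-regulated anion channel, and Clca4b (-0.58).

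Genes for basolateral potassium channels and the control of NKCC1 had mostly positive estimates, none past the adjusted threshold. Of 11 tested, 10 had estimates above 0 (median 0.08), among them Kcnq1 (0.16), whose channel recycles potassium during chloride secretion. Of 8 carbonic anhydrase genes, 4 had estimates above 0 (median 0.02), and Car3, which adipocytes also express, had a log2 fold change of -0.46. Adipocyte markers, Car3 among them, summed to 44.9, 41.8 and 41.3 FPKM in Cre-positive libraries and to 36.9, 64.6 and 81.6 FPKM in Cre-negative libraries, and their part in the Car3 value was not tested. Of 5 aquaporin genes, 2 had estimates above 0 (median -0.11), with Aqp4 at 0.28 and Aqp7 at -0.34. Of 13 genes for receptors, cyclases and other parts of the signalling around chloride secretion, 6 had estimates above 0 (median -0.0047). Pde4d, a cyclic AMP phosphodiesterase gene and so neither a receptor nor a cyclase gene, stood at -0.16. The adenosine receptor gene Adora2b stood at -0.20.

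**Figure D4:**
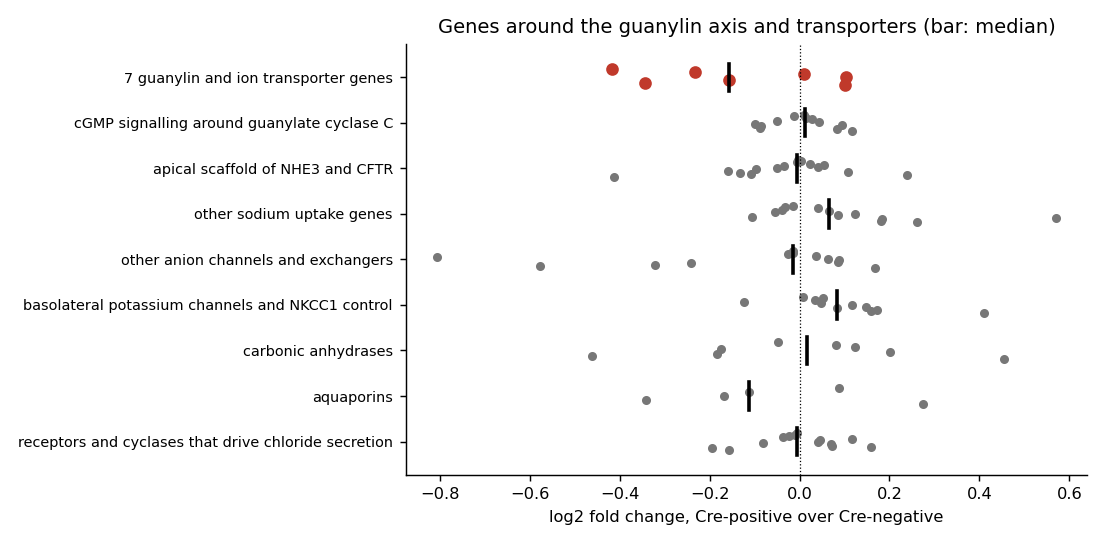
Log2 fold changes (horizontal axis, Cre-positive over Cre-negative) of the 7 tested genes of the axis in red and of tested genes in 8 surrounding lists in grey, with black bars at the medians. Every list straddles 0, and list medians lie between -0.11 and 0.08.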

How the data were processed

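The authors deposited 1 table of FPKM values with 1 column per library. Per the submitters' processing notes, the tools named are Cuffnorm, Cufflinks, STAR, SAMtools, bedtools, Trimmomatic and FastQC, and the builds GRCm38 and mm10. The sources used here give neither settings nor the scaling between libraries. Groups and replicate numbers came from the sample titles. FPKM values are not counts, so the 12695 genes averaging 1 FPKM or more were compared on log2(FPKM + 1) by limma (moderated, trended, two-sided), Benjamini-Hochberg adjusted with a threshold of 0.05, and the scale understates changes of low genes. The test was tried on simulated data. Single genes also had exact permutation tests. Both tests of the groups judge a difference against variation between single mice. Correlation p values come from pairing the libraries of both groups in every order.

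The 8 genes and all lists were chosen with earlier results of these data known. Of the list symbols, 7 were found under older names through RefSeq. Beyond the 8 genes, the text names for each the 3 genes of most similar pattern, 2 genes per list by p, and Il17ra. In 1 list, a gene named by this rule is left out. The named cell type lists gave goblet, Paneth, enteroendocrine and smooth muscle sums whose groups overlapped. Fragment totals are not in the table, so relative depth was estimated from steps in low values. Gene positions are from GENCODE M21 and promoters from RefSeq. Tools were limma 3.58.1 in R 4.3.3 and, in Python 3.11.15, scipy 1.17.1, numpy 2.4.6, pandas 2.3.3 and matplotlib 3.10.9. Alternatives were pseudocounts of 0.1 and 5, no filter or one of 5 FPKM, 4 other scalings, 3 other limma settings, a replicate block and each library left out. The Cre-positive group reduced to replicate 3 was added after the values were seen.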

Additional observations from a re-analysis of the deposited data

How the results depend on the processing

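Over 19 alternatives, 0 of 133 estimates for the 7 tested genes passed an adjusted p of 0.05, and all but Cftr kept their direction. Cftr turned to -0.029 with median-of-ratios scaling and to -0.013 with array weights, and estimates without 1 library ranged from -0.11 to 0.15. Across all settings the log2 fold change ranged from -0.83 to -0.16 for Guca2a, -0.55 to -0.03 for Guca2b, -0.64 to -0.13 for Slc9a3, -0.41 to -0.03 for Slc26a6, 0.0023 to 0.30 for Slc26a3 and 0.0086 to 0.27 for Slc12a2. Moves of over 1.5 times had no tested cause. Of all genes, where limma called 0 higher and 0 lower, 2 were called higher with a pseudocount of 0.1, after rescaling to an equal sum or with epithelial centring (log2 values less the library's mean over epithelial markers), and 1 higher and 1 lower with a pseudocount of 5. Array weights called 11 higher and 13 lower, and the Cre-positive group reduced to replicate 3 called 2 higher and 2 lower, where the lone library is assumed to vary like the others. Leaving out 1 library called 0 to 40 higher, the most without Cre-positive 3, and 0 to 2 lower. The genes of the axis and the pathway lists had 0 calls in every setting. At an unadjusted p under 0.05, all genes ranged from 109 to 1741 higher and from 54 to 976 lower, against 323 and 136. The pathway genes ranged from 1 to 7 higher and 0 to 7 lower. The 7 genes of the axis had 0 higher in every setting and 0 to 2 lower, which were Slc9a3 (limma unadjusted p = 0.0046) and Slc26a6 (0.0477) with array weights, Slc9a3 (0.00347) without Cre-negative 1 and Guca2a (0.0347) without Cre-positive 1.

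Replicate numbers were not treated as pairs in the main test. Same-numbered libraries had correlations of -0.13, 0.03 and -0.11 between their deviations from the group means. Across different numbers these correlations ranged from -0.02 to 0.14, so they cannot tell whether mice were paired. With the replicate number as a block, 1 gene was called higher and 0 lower, and the estimates of the axis were the same, with Slc9a3 at -0.34 (SE 0.17, limma adjusted p = 0.999). With 3 mice a group and a median standard error of 0.13, small differences were not detectable.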

Other observations

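Clca4a, a calcium-activated chloride channel regulator family gene in the list of other anion genes, varied more between mice than any gene of the axis, and it is named here after its values were seen. It stood at 207, 46.4 and 1.69 FPKM in Cre-positive libraries and at 7.35, 156 and 108 FPKM in Cre-negative libraries, with a log2 fold change of -0.81 (SE 1.63, limma adjusted p = 0.998). Ada, the adenosine deaminase gene among the villus markers, stood at 112, 22.7 and 2.98 FPKM in Cre-positive libraries and at 5.22, 77.6 and 35.4 FPKM in Cre-negative libraries. In both genes Cre-positive 3 and Cre-negative 1 were the lowest libraries, and these had the least Slc26a6 as well. Sgk1, a kinase gene that acts on sodium transport, stood at 122, 94.3 and 72.7 FPKM in Cre-positive libraries and at 27.1, 75.9 and 121 FPKM in Cre-negative libraries (log2 fold change 0.57, limma adjusted p = 0.998), also named after its values were seen.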
